A study of Mus musculus with 6 samples.

Results

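The genes described here are 10 named genes of the endoplasmic reticulum (ER) and its stress response, listed by name. They are calreticulin (Calr), calnexin (Canx), the binding protein BiP (Hspa5), GRP94 (Hsp90b1), the disulfide isomerases Pdia3, Pdia4 and Pdia6, and the stress transcription factors CHOP (Ddit3), Xbp1 and Atf4. All 10 were found among the 25860 genes of the count table, and all 10 were among the 17231 genes tested, those with 10 or more reads over all libraries together. RNA was taken from normal-looking lungs of untreated 12-month-old mice. One group was RAG1-/- (replicates 1 to 3) and the other was RAG1-/- Sgo1-/+ (replicates 4 to 6), with 3 libraries in each. Both groups lack RAG1, the recombinase needed to make antigen receptors, so neither should hold mature B or T cells, and no group with intact RAG1 was sequenced. The comparison therefore asks what the loss of 1 Sgo1 allele changes on that background. Sgo1 encodes Shugoshin-1, which holds sister chromatids together at mitosis, and mice with 1 copy are used as a model of chromosome instability. As background, unbalanced chromosomes can burden protein folding, and calreticulin also serves as a signal to immune cells.

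Secreted and membrane proteins fold in the ER. BiP, an Hsp70 chaperone, binds exposed hydrophobic stretches, GRP94 is the Hsp90 of the same compartment, and calnexin and calreticulin hold newly made glycoproteins by their sugar chains while Pdia3 exchanges their disulfide bonds. When unfolded proteins accumulate, the membrane sensors IRE1, PERK and ATF6 start the unfolded protein response: IRE1 splices the Xbp1 messenger RNA, PERK favours translation of Atf4, and ATF6 is cut to release a transcription factor. These factors raise chaperone genes and, under lasting stress, Ddit3, which is linked to cell death. In the lung this machinery serves the alveolar and airway cells that secrete surfactant proteins and secretoglobins. Much of its control acts on splicing, translation and protein cleavage, which counts of whole genes do not show.

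Chaperone genes of the ER share a promoter element, the ER stress element, through which ATF6 and the CCAAT-binding factor NF-Y act. Its letters were searched as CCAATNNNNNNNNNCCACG on both strands of the RefSeq promoter windows of mouse build GRCm38.p6, each 250 bases before to 50 after a gene start. The members were matched to these windows by symbol, and all 10 had one. The element was present in 39 of 32851 windows (0.119%) and in the windows of 5 of the 10 members, all of them chaperones. The 6 matches are shown because they are the sequence feature that these 5 members share. Capitals mark the outer 5 bases at each end, and each match is read 5′ to 3′ on the strand that carries it.
Hspa5, chr2:34772025-34772043, strand of the gene: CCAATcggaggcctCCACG
Hsp90b1, chr10:86705533-86705551, opposite strand: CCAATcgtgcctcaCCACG
Hsp90b1, chr10:86705638-86705656, strand of the gene: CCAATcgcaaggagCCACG
Calr, chr8:84847075-84847093, opposite strand: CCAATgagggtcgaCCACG
Canx, chr11:50325800-50325818, strand of the gene: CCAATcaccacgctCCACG
Pdia6, chr12:17266491-17266509, strand of the gene: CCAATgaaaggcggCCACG

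With the last 2 bases left free (CCAATNNNNNNNNNCCANN), 358 windows (1.09%) held a match, among them those of the other 2 chaperones. Those matches are shown because they complete the set of 7 chaperones. Their capitals mark the same positions.
Pdia3, chr2:121413823-121413841, strand of the gene: CCAATcggcagttaCCAGC
Pdia3, chr2:121413873-121413891, strand of the gene: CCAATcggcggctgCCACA
Pdia4, chr6:47813602-47813620, opposite strand: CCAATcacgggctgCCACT

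Thus 7 of 7 chaperones and 0 of 3 transcription factors held the looser form in their windows. That split depends on which bases were left free. On the opposite strand the Ddit3 window holds CCAAT and, after 9 bases, GCACG, which differs from CCACG only in its first base. A pair of stretches of 79 bases, with 30 bases on each side of the match and written on the strand of the gene, show the setting of the element for the member with the lowest P (Calr) and for the one most often used to read ER stress (Hspa5). In Calr the capitals appear reversed and complemented, since the match is on the other strand.
Calr, chr8:84847045-84847123, minus strand: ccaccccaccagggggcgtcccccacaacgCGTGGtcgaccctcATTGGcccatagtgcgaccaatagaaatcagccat
Hspa5, chr2:34771995-34772073, plus strand: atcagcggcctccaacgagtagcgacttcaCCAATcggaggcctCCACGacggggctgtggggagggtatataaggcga

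The Calr match also lies in the window of 1700122E12Rik, an untested gene that starts close by in the other direction. Of the genes with the full element, 22 were tested, and their median log2 fold change between genotypes was 0.085, with 13 above 0 and 9 below. Over all tested genes the median was 0.034, with 9461 above 0 and 7770 below. Members made up 5 of the 22 tested genes with the element, with 3 above 0 and 2 below. A match describes letters, and binding was not measured.

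The libraries held 3205822 to 9366774 reads on genes. A level of 3 reads, given for scale and not used as a filter, corresponded to 0.3203 to 0.936 reads per 1000000 reads on genes (CPM). The members had 802 to 22202 reads in all, against a median of 671 over the tested genes. Lung markers were present in every library. Reads of Sgo1 numbered 6, 2 and 4 in replicates 1 to 3 against 6, 0 and 2 in replicates 4 to 6, and Rag1 had 8 to 24 per library, too few to check the genotypes. A few libraries stood apart. RAG1-/- replicate 1 alone held many Xist reads (7717, against 4 to 8 elsewhere) and had the highest summed adipocyte markers. That library also had 2 reads of the Y-linked gene Ddx3y, against 342 to 1228 elsewhere. These reads mark it as the only library from a female, which the labels used here do not state. The genotypes were therefore not balanced for sex. The library labelled RAG1-/- replicate 2 held transcripts of B and plasma cells. It had 1853 reads of Igkc and 942 of Jchain against at most 8 elsewhere. Ms4a1 and Pax5 reads were present there, where the other 5 libraries had 0. Of T cell genes, Trac had 22 reads in replicate 2, against at most 2 elsewhere. Cd8a had 34 reads in replicate 2, 12 in replicate 6 and 0 in the rest. Such reads go against the RAG1-/- label of replicate 2, and their source was not tested. RAG1-/- Sgo1-/+ replicate 6 was the shallowest. Its 7 summed macrophage markers reached 6715 CPM against 450 to 904 in the other 5 libraries, most of it from Chil3 (6083 CPM). Cd68, Mrc1, Itgax and Ear2 were also highest there, but Marco was highest in replicate 3 and Siglecf in replicate 2. Siglecf was at 4.44 to 6.24 CPM in RAG1-/- Sgo1-/+, against 9.08 to 11.3 CPM in RAG1-/-. Values without 1 of these libraries are given below where they moved a result most. In whole lung, fewer cells of a type and less RNA per cell cannot be told apart.

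Per length of exon, the members differed widely in level. Taken as CPM per kilobase of the merged exons of the basic GENCODE transcripts, over the 6 libraries, the mean level was 231 for Hsp90b1, 216 for Atf4, 189 for Pdia3 and 163 for Hspa5. Next came Xbp1 at 110, Pdia6 at 107 and Canx at 95.4, then Calr at 51.5 and Pdia4 at 49.1, and last Ddit3 at 25.6. In this order the ranges over libraries failed to overlap at 3 steps, from Hspa5 to Xbp1, from Canx to Calr and from Pdia4 to Ddit3. Neighbours within the resulting 4 groups overlapped. The order depended on the exons counted: with those of all annotated transcripts, Pdia3 (167), Hsp90b1 (162) and Atf4 (158) led with overlapping ranges, Canx (87.1) came above Xbp1 (81.0) and Pdia6 (62.4), and Pdia4 (49.1) above Calr (39.0). Only the steps after Hspa5 and before Ddit3 then lacked overlap. With either set, Calr had a lower level per length than its membrane-bound relative Canx in every library.

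No member passed the test of the genotypes over all genes. With the quasi-likelihood test of edgeR and Benjamini–Hochberg adjustment, 0 of the 10 members passed an adjusted P under 0.05 with a 2-fold change. In the same test 0 of 17231 genes passed (0%), the smallest adjusted P being 0.832, while 976 had an unadjusted P under 0.05. Of the members, 5 were above 0 in log2 fold change and 5 below, with a median of -0.0062 against 0.034 over all tested genes. The estimates ran from -0.16 to 0.34, each with an SE between 0.12 and 0.17. Every 95% interval lay within a fold change of 2 in either direction. At an unadjusted P under 0.05, 1 member was higher in RAG1-/- Sgo1-/+ (Calr), where 3.15% of tested genes were, and 0 were lower, where 2.52% were. In CPM the groups failed to overlap for 1 member in the higher direction (Atf4), against 6.24% of tested genes, and for 1 in the lower direction (Canx), against 5.54%.

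**Figure D1:**
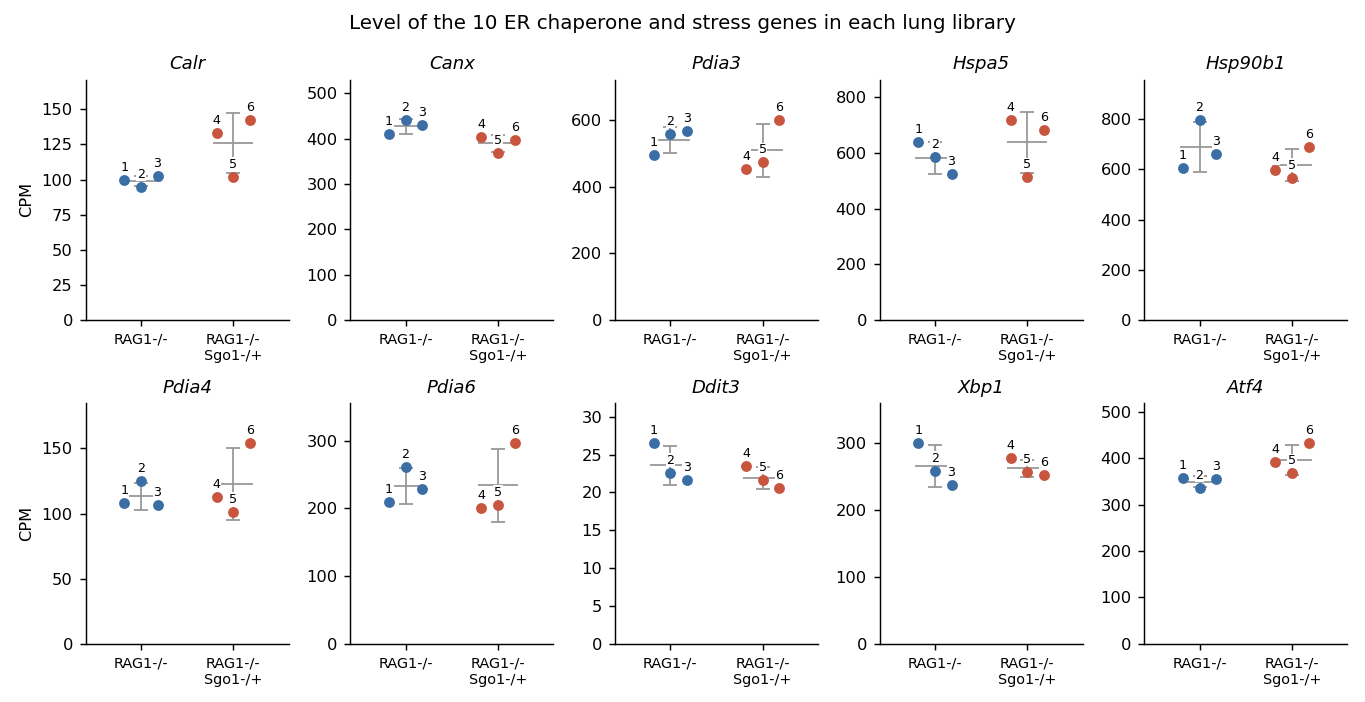
Level of each member (CPM, vertical axis starting at 0, own scale per gene) in the 3 RAG1-/- libraries (blue) and the 3 RAG1-/- Sgo1-/+ libraries (red), numbered by replicate. Grey lines give the mean and SD (n = 3 per group). The groups separate for Canx and Atf4, and for Calr replicate 5 sits among the RAG1-/- libraries.

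The calnexin and calreticulin cycle was examined first. Calr encodes the soluble lectin of the cycle. In RAG1-/- it had 932, 470 and 677 reads, against 659, 550 and 457 reads in RAG1-/- Sgo1-/+. This was 99.5, 94.96 and 102.45 CPM against 133, 101.88 and 143 CPM. Replicates 4 and 6 were above every RAG1-/- library, while replicate 5 lay just below the highest of them, so the groups overlapped. The means were 99.0 ± 3.77 CPM (SD, n = 3) and 126 ± 21.3 CPM (SD, n = 3), and the log2 fold change was 0.34 (SE 0.14, 95% interval 0.021 to 0.67). The unadjusted P of edgeR was 0.0389 and the Benjamini–Hochberg adjusted P 0.832. The exact permutation test of CPM (two-sided, smallest possible P 0.1) gave P = 0.2. The unadjusted P was above 0.05 in 5 of the 6 fits with 1 library left out, and without replicate 6 the log2 fold change was 0.25. Without replicates 2 and 6 it was 0.22.

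Canx, the membrane-bound lectin, had the opposite order. It was at 410, 442 and 431 CPM in RAG1-/- and at 405, 368 and 397 CPM in RAG1-/- Sgo1-/+. All 3 RAG1-/- Sgo1-/+ libraries were below all 3 RAG1-/- libraries, with replicates 1 and 4 close together. The log2 fold change was -0.13 (SE 0.12, 95% interval -0.39 to 0.13; adjusted P = 0.874, edgeR), and the exact permutation P was 0.1, the smallest it can give. Leaving out any 1 library kept it between -0.16 and -0.092.

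Pdia3, the isomerase that works on glycoproteins held by both lectins, was at 496, 559 and 566 CPM in RAG1-/- and at 453, 473 and 601 CPM in RAG1-/- Sgo1-/+. Replicate 6 was the highest of the 6 libraries and replicates 4 and 5 were the lowest, so that the groups overlapped. Between genotypes it was at -0.087 on the log2 scale (SE 0.14, adjusted P = 0.942, edgeR), and -0.22 without replicate 6.

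Because Calr and Canx lay on opposite sides of 0, their ratio in each library was also taken, which does not depend on the library total. In RAG1-/- the ratio of Calr to Canx reads was 0.243, 0.215 and 0.238, against 0.329, 0.277 and 0.359 in RAG1-/- Sgo1-/+. All 3 RAG1-/- Sgo1-/+ ratios were above the RAG1-/- ratios, replicate 5 included. The ratios of Calr to Pdia3, Hsp90b1 and Pdia6 also failed to overlap between groups. Of the 45 pairs of members, 9 (20%) were apart in this way, against 12.9% of all pairs among the 7905 tested genes with at least as many reads as the least-read member. Calr was in 9 of the 45 pairs, and 4 of its 9 were apart. Pairs share genes and libraries and are not independent. These pairs were picked out after their values were seen and were given no test.

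Hspa5 encodes BiP, the chaperone that also keeps the 3 sensors silent until it is drawn away by unfolded proteins. It was at 640, 584 and 524 CPM in RAG1-/- and at 720, 513 and 683 CPM in RAG1-/- Sgo1-/+. Replicates 4 and 6 were the highest and replicate 5 the lowest of all 6, so both extremes fell in the same genotype. Its difference was 0.13 on the log2 scale (SE 0.16, 95% interval -0.21 to 0.48; adjusted P = 0.905, edgeR).

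Hsp90b1 encodes GRP94, which folds a smaller set of clients that includes integrins and Toll-like receptors. It was at 606, 797 and 660 CPM in RAG1-/- and at 596, 566 and 689 CPM in RAG1-/- Sgo1-/+. The highest value was that of replicate 2, the library with immunoglobulin transcripts. On the log2 scale the fold change was -0.16 (SE 0.14, 95% interval -0.48 to 0.17; adjusted P = 0.880, edgeR), and it was -0.037 without replicate 2. The part of the B and plasma cell transcripts in that value was not tested beyond leaving the library out. On the opposite strand Hsp90b1 shares 415 bases (10.3%) of the exons of all its transcripts with the pseudogene 1810014B01Rik.

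Pdia4 and Pdia6 are disulfide isomerases that act with BiP. Pdia4 was at 108, 125 and 107 CPM in RAG1-/- and at 113, 101 and 154 CPM in RAG1-/- Sgo1-/+. Pdia6 was at 210, 262 and 228 CPM in RAG1-/- and at 201, 205 and 296 CPM in RAG1-/- Sgo1-/+. For both genes replicate 6 was the highest library, and the other RAG1-/- Sgo1-/+ libraries lay within or below the RAG1-/- range. The log2 fold change of Pdia4 was 0.11 (SE 0.17, adjusted P = 0.932, edgeR) and became -0.080 without replicate 6. That of Pdia6 was 0.0042 (SE 0.17, adjusted P = 0.998, edgeR) and became -0.20 without that library. The sign for Pdia4 thus rested on replicate 6, in which the sum of the macrophage markers, mostly Chil3, was also highest. Whether these go together was not tested. That for Pdia6, so close to 0, also turned without replicate 1 (-0.067) and under other normalizations and tests.

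**Figure D2:**
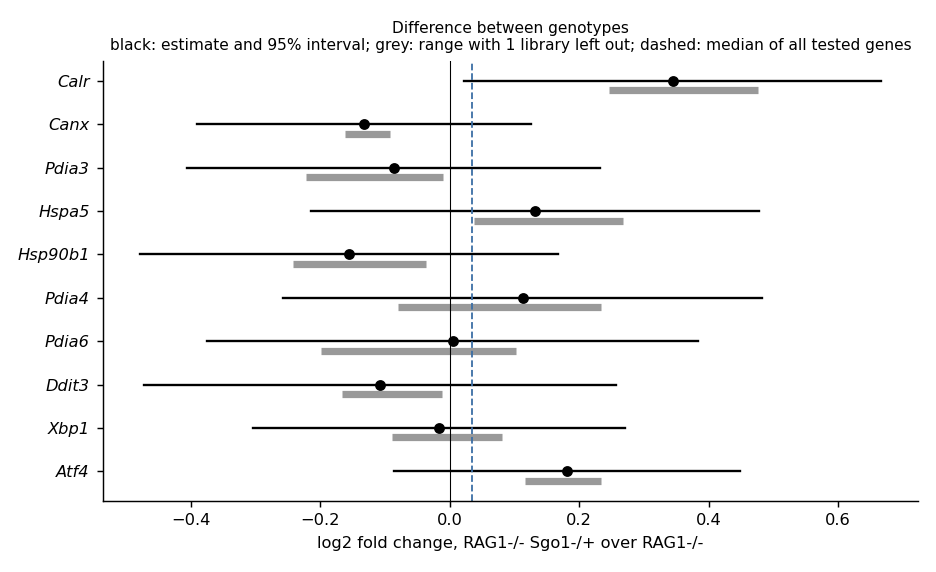
Log2 fold change of each member (RAG1-/- Sgo1-/+ over RAG1-/-, horizontal axis) with its 95% interval from the edgeR fit (black) and its range when each of the 6 libraries was left out in turn (grey). The dashed line is the median of all tested genes, 0.034. Only the interval of Calr lies wholly on one side of 0, and the grey ranges of Pdia4, Pdia6 and Xbp1 cross it.

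The 3 stress transcription factors differed in direction, with Atf4 above 0 and Xbp1 and Ddit3 below. Atf4, whose protein drives the integrated stress response, was at 357, 336 and 356 CPM in RAG1-/- and at 391, 368 and 432 CPM in RAG1-/- Sgo1-/+. All 3 RAG1-/- Sgo1-/+ libraries were above all 3 RAG1-/- libraries. The log2 fold change was 0.18 (SE 0.12, 95% interval -0.087 to 0.45; adjusted P = 0.853, edgeR) and the exact permutation P was 0.1. With the TMM factors of edgeR, or the summed reads of other ER folding factors, in place of library totals the 2 groups of Atf4 values overlapped. Without replicate 6 the difference was 0.12.

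Xbp1, whose product raises genes of secretion and of ER-associated degradation, was at 299, 258 and 237 CPM in RAG1-/- and at 277, 257 and 252 CPM in RAG1-/- Sgo1-/+. The RAG1-/- Sgo1-/+ libraries lay inside the RAG1-/- range. Its log2 fold change came to -0.017 (SE 0.13, 95% interval -0.30 to 0.27; adjusted P = 0.990, edgeR), and it was 0.080 without replicate 1. The spliced and unspliced forms of Xbp1 cannot be told apart in these counts.

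Ddit3, the gene of CHOP and the least abundant member, had 248, 112 and 143 reads in RAG1-/-, against 116, 117 and 66 reads in RAG1-/- Sgo1-/+. This was 26.5, 22.6 and 21.6 CPM against 23.4, 21.7 and 20.6 CPM. Replicate 1 was the highest and replicate 6 the lowest, and the groups overlapped. In edgeR the log2 fold change was -0.11 (SE 0.16, 95% interval -0.47 to 0.26; adjusted P = 0.935, edgeR). Counting error alone, with each read taken as independent, was 12.3% of the value in replicate 6, the largest of any member. Ddit3 also shares 68 exonic bases (3.97%) with Mars on the opposite strand, and strand was not kept by the library kit. The ratio of Ddit3 to Atf4 reads was 0.074, 0.067 and 0.061 in RAG1-/-, against 0.060, 0.059 and 0.048 in RAG1-/- Sgo1-/+, one of the 9 pairs apart.

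As a sum, the chaperones differed more among the RAG1-/- Sgo1-/+ libraries than between the genotypes. Summed over the 7 chaperones, the share of reads was 0.257, 0.286 and 0.262% in RAG1-/-, against 0.262, 0.233 and 0.296% in RAG1-/- Sgo1-/+. The lowest and the highest library were therefore replicates 5 and 6 of the same genotype. In replicate 5 all 7 chaperones were below their own mean over the 6 libraries (7 of 7, by 0.12 to 0.24 in log2 CPM), and in replicate 6 a total of 6 of the 7 were above it, Canx being the exception. Replicate 6 held the highest value of 5 members, where 25.4% of all tested genes had theirs, and replicate 5 the lowest value of 4 members, where 11.5% of tested genes had theirs. The SD was larger in RAG1-/- Sgo1-/+ for 6 of the 7 chaperones, all but Hsp90b1, as it was for 61.2% of tested genes. Ddit3 and Xbp1 were highest in replicate 1 and, like the chaperones, below their mean in replicate 5, but were also below it in replicate 6.

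**Figure D3:**
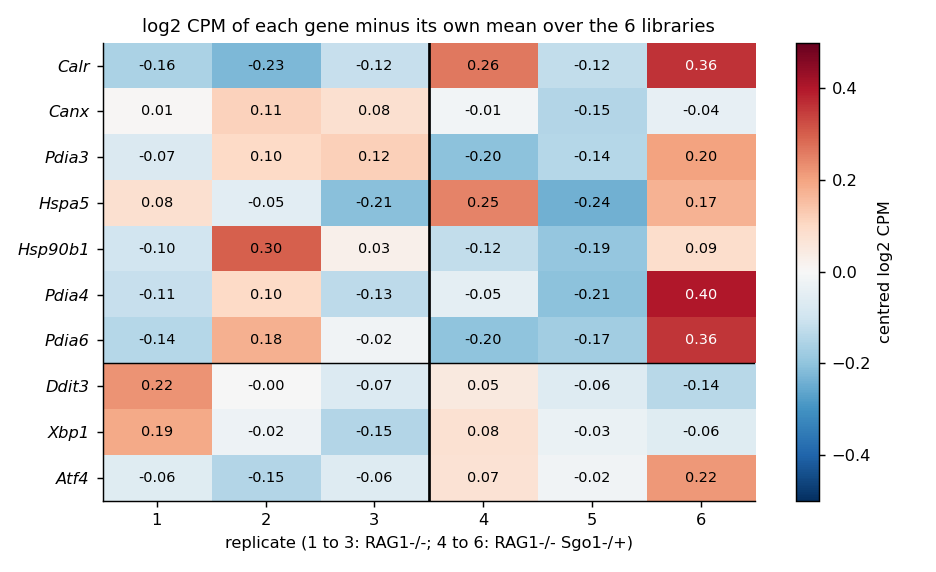
Log2 CPM of each member minus its own mean over the 6 libraries (colour and printed value), by replicate, with RAG1-/- left and RAG1-/- Sgo1-/+ right of the vertical line and chaperones above the horizontal line. All 7 chaperones are below 0 in replicate 5 and 6 of 7 are above 0 in replicate 6.

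Outside the members, the 5 genes whose profile over the 6 libraries lay nearest to the mean profile of the 7 chaperones, by root-mean-square distance in centred log2 CPM, were Adssl1 (0.018), Nrbf2 (0.031), Cables2 (0.040), Aamp (0.040) and Slc25a39 (0.042). The SD of the mean chaperone profile itself within a genotype, pooled over both genotypes, was 0.15. None of these 5 is known as an ER chaperone. Their log2 fold changes between genotypes lay between -0.022 and 0.058. Small values follow from the choice, since the chaperone profile they were matched to differed little between genotypes.

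The wider machinery was read from 4 further lists written by hand, which held 106 tested genes. None passed the adjusted threshold (0 of 106). At an unadjusted P under 0.05, 7 were higher in RAG1-/- Sgo1-/+ (3.15% of all tested genes were) and 1 lower (2.52% were). The median log2 fold change of the 106 was 0.078, against 0.034 over all tested genes. The genotypes did not overlap in CPM for 15 genes in the higher and 7 in the lower direction, 20.8% of the 106 against 11.8% of all tested genes. The lists were chosen with earlier results of these data known, so these shares describe the lists and were not tested.

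The 36 other folding factors of the ER had a median of 0.059. At an unadjusted P under 0.05, 0 of them were lower (2.52% of all tested genes were) and 1 was higher (3.15% were). It was Hyou1, an Hsp110-like partner of BiP, at 98.8, 76.0 and 69.3 CPM in RAG1-/- and 119, 97.4 and 109 CPM in RAG1-/- Sgo1-/+. Replicate 5 lay just below replicate 1, so the groups overlapped. Hyou1 had a log2 fold change of 0.41 (SE 0.16, adjusted P = 0.832, edgeR), and 0.36 without replicates 2 and 6. Cnpy2 and Dnajc10, a reductase that works with BiP, were lower in all 3 RAG1-/- Sgo1-/+ libraries than in any RAG1-/- library, with log2 fold changes of -0.31 (SE 0.16) and -0.23 (SE 0.12). Cnpy2 was at -0.17 without replicate 6. Of the list's genes with a promoter window (29), Dnajc3, Creld2 and Ero1b carried the full element listed above, and none of the 3 had an unadjusted P under 0.05.

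ER-associated degradation, which sends misfolded proteins to the proteasome, held 20 tested genes. At an unadjusted P under 0.05, 2 were higher (3.15% of all tested genes were) and 1 lower (2.52% were). The lower one was Selenos, a selenoprotein of the retrotranslocation complex, at 165, 165 and 162 CPM in RAG1-/- and 120, 131 and 133 CPM in RAG1-/- Sgo1-/+. The 3 RAG1-/- values were nearly equal and all RAG1-/- Sgo1-/+ values lay below them. Selenos had a log2 fold change of -0.36 (SE 0.11, adjusted P = 0.832, edgeR), and it stayed between -0.39 and -0.32 when any 1 library was left out. Ube2g2, the ubiquitin-conjugating enzyme of this route, was higher in all 3 RAG1-/- Sgo1-/+ libraries (90.5, 85.9 and 89.2 CPM against 76.4, 69.9 and 67.2 CPM, log2 fold change 0.31, SE 0.12). Edem2, which trims mannose from misfolded glycoproteins, was at 0.39 (SE 0.17) and at 0.18 without replicate 6.

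The sensors and regulators of the unfolded protein response held 18 tested genes, 14 of them above 0, with a median of 0.16. Among all 17231 tested genes, 9461 were above 0, with a median of 0.034. In this list 1 gene was higher at an unadjusted P under 0.05, where 3.15% of all tested genes were. That gene was Wfs1, an ER membrane protein that restrains ATF6. It was at 24.7, 20.002 and 22.9 CPM in RAG1-/- and at 28.3, 27.2 and 54.3 CPM in RAG1-/- Sgo1-/+. All 3 RAG1-/- Sgo1-/+ libraries were higher, and replicate 6 stood well above the other 2. Its log2 fold change of 0.68 (SE 0.26, adjusted P = 0.832, edgeR) was 0.30 without that library. Ern1, the gene of IRE1, was at 0.51 (SE 0.30) and Bak1 at 0.43 (SE 0.22), with overlapping groups. Ern1 was at 0.28 without replicate 4 and Bak1 at 0.15 without replicate 6.

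Targets of the integrated stress response, the genes that ATF4 and CHOP act on, numbered 32 tested genes, with a median of 0.072. At an unadjusted P under 0.05, 3 were higher (3.15% of all tested genes were) and 0 lower (2.52% were). Ddit4, an inhibitor of mTOR signalling, was at 28.0, 32.3 and 24.5 CPM in RAG1-/- and at 42.8, 46.7 and 38.1 CPM in RAG1-/- Sgo1-/+. All 3 RAG1-/- Sgo1-/+ libraries were above the RAG1-/- range. Ddit4 had a log2 fold change of 0.60 (SE 0.16, adjusted P = 0.832, edgeR), and 0.77 without replicates 2 and 6. Asns, which makes asparagine, was at 0.48 (SE 0.18), and Tnfrsf10b, a death receptor, at 0.66 (SE 0.25) from 287 reads, and both were higher in all 3 RAG1-/- Sgo1-/+ libraries. The first 2 without replicate 6 were at 0.67 and 0.37. In all, 4 of these 32 targets (12.5%) were apart, all in the higher direction. Among all tested genes 6.24% were apart in that direction and 11.8% in either direction.

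**Figure D4:**
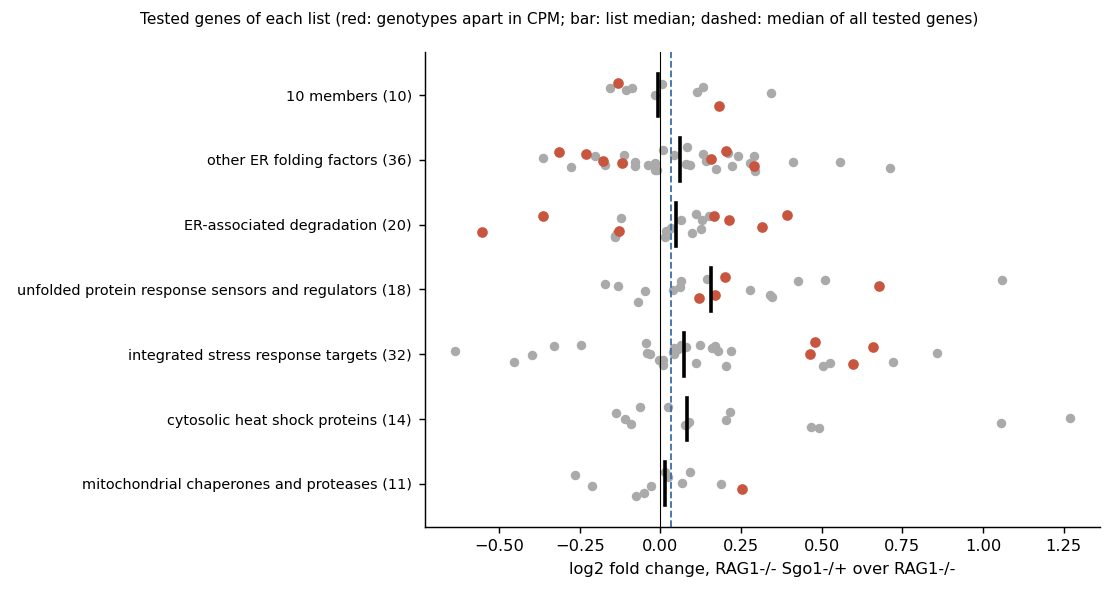
Log2 fold change of every tested gene of the members and of each further list (horizontal axis; number of genes in brackets), with list medians as black bars and genes whose genotypes do not overlap in CPM in red. The medians lie between -0.0062 and 0.16, and the dashed line is the median of all tested genes, 0.034.

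The folding machinery of other compartments was set beside these. Of 14 cytosolic heat shock proteins, 0 had an unadjusted P under 0.05 in either direction and 0 were apart, with a median of 0.084. Hspa1a and Hspa1b, near-identical copies between which reads may be shared, had log2 fold changes of 1.27 (SE 0.60) and 1.05 (SE 0.60). Both were highest in replicate 4, with 54.5 and 83.2 CPM against at most 20.7 and 23.9 CPM elsewhere. Without replicate 4, Hspa1a was at 0.26 and Hspa1b at -0.26. Hsph1, a cytosolic Hsp110, was at 0.49 (SE 0.28) and at 0.25 without that library. Of 11 mitochondrial chaperones and proteases, 0 had an unadjusted P under 0.05, the median was 0.014, and only Lonp1 was apart, in the higher direction (log2 fold change 0.25, SE 0.14, and 0.13 without replicate 3). Clpx and Yme1l1 were at -0.26 (SE 0.17) and -0.21 (SE 0.14), with overlapping groups, and both at -0.12 without replicate 6.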

How the data were processed

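Lung RNA of 3 RAG1-/- and 3 RAG1-/- Sgo1-/+ mice was sequenced on an Illumina MiSeq with a TruSeq V2 kit, which does not keep strand. The authors deposited whole-number read counts per gene, not normalized, made with the GeneSifter software on mouse build 37.2. BWA and edgeR are named in the submitters' processing notes; how these were set, and how multiply mapped reads were counted, is not given in the sources used here. Between 63.5 and 69.0% of the non-zero counts were even, as when both mates of a pair are counted, so counting errors based on reads may be too small. Each column is given under a pair of headings with identical values (6 of 6), and the first was used. A further deposited list holds the authors' own fold changes, P-values and group means and was not used.

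Genes were matched to symbols by Entrez Gene ID (24048 of 25860, 93.0%). Genes with at least 10 summed reads entered 1 quasi-likelihood fit (edgeR 4.0.16 under R 4.3.3) over all 6 libraries, with the summed reads of each as its size and no covariate, adjusted by Benjamini–Hochberg over 17231 genes. CPM are counts per 1000000 of that sum. Intervals are 95%. CPM of single genes were also given an exact two-sided permutation test (20 splits, smallest P 0.1). P-values measure the spread between libraries of 1 mouse each. Levels per kilobase used the merged exons of the basic set of GENCODE M21 on GRCm38, and promoter windows came from RefSeq on GRCm38.p6. No protein sequence was used here. No counts were placed on those builds by coordinate.

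The text names the 10 members, the 3 genes with the lowest unadjusted P in each further list, the 5 genes nearest to the chaperone profile among those with at least 100 reads in all, the top genes of marker lists where a result needs them, Sgo1 and Rag1. Xist, Ddx3y, Mars, the carriers of the promoter element and the ratios of members were added after their values were seen. The members and lists were chosen with earlier results of these data known.

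Alternatives were the TMM factors of edgeR, DESeq2 size factors, DESeq2 1.42.0, limma-voom (limma 3.58.1), no filter, the filterByExpr function of edgeR, halved counts and each library left out in turn. Leaving out replicates 2 and 6 together, and scaling to the summed reads of the other ER folding factors, and exons of all transcripts for levels per length, were added after the data were seen.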

Additional observations from a re-analysis of the deposited data

How the results depend on the processing

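The log2 fold changes of the 10 members were recomputed under 15 settings and those of 18 other named genes under 14, giving 402 values, of which 388 kept their direction and 14 reversed. Pdia6 reversed in 9 of the settings, to -0.022 with TMM factors, -0.018 with DESeq2 size factors, -0.019 with DESeq2, -0.017 with limma-voom, -0.023 when scaled to the other ER folding factors, -0.108 without replicates 2 and 6, -0.067 without RAG1-/- replicate 1, -0.011 without RAG1-/- replicate 3 and -0.199 without RAG1-/- Sgo1-/+ replicate 6. Pdia4 reversed to -0.080 without replicate 6 and to -0.0037 without replicates 2 and 6. Xbp1 reversed to 0.080 without replicate 1 and to 0.0099 without replicate 6, and Hspa1b to -0.26 without replicate 4. With 1 library left out, Pdia4 ran from -0.080 to 0.23, Pdia6 from -0.199 to 0.10, Xbp1 from -0.090 to 0.080 and Hspa1b from -0.26 to 1.48. The cause was not tested.

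The number of genes past an adjusted P under 0.05 with a 2-fold change was 1 instead of 0 with the DESeq2 Wald test, and 0 to 1 with 1 library left out. At an unadjusted P under 0.05 there were 976 genes with edgeR, 694 with DESeq2 and 837 with limma-voom. The number of members with an unadjusted P under 0.05 was 0 instead of 1 with TMM factors, DESeq2 size factors, DESeq2 and without replicates 2 and 6, and 0 to 1 with 1 library left out. Members with groups apart in CPM numbered 1 instead of 2 with TMM factors, Canx remaining. Scaled to the other ER folding factors they were again 2, but Calr and Canx instead of Canx and Atf4. TMM factors shifted all genes by -0.026 at the median. The median of the 7 chaperones stayed between -0.15 and 0.095.

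With 3 libraries in each group and SEs of 0.12 to 0.17, the members' log2 differences did not exceed the spread between mice by the adjusted test. No paired analysis was made, since each library came from a different mouse and the labels give no pairing. Counting error, with each read taken as independent, was at most 12.3% for any member and library. It may be larger if both mates of a pair were counted.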
